A study of Mus musculus with 6 samples.

Results

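The genes described here are 10 that encode the Polo-like kinases, Aurora A and a group of related mitotic kinases and kinase activators: Plk1, Plk2, Plk3, Plk4, Aurka, Tpx2, Bora, Nek2, Melk and Pbk. They were chosen by gene name in GENCODE release M21, and each of the 10 matched exactly 1 of the 55450 gene identifiers in the count files. Their transcripts were measured by bulk RNA-Seq of primary hepatocytes from mice of strain C57BL/6 by the labels and C57BL/6J by the study's methods, with 3 libraries from undamaged liver (0 h) and 3 from liver taken 48 h after partial hepatectomy (PHx), an operation that takes out most of the organ. All mice ate a normal diet, carried no transgene or deletion named in the labels, and were 10 to 12 weeks old by the labels, while the study's methods give male mice of a slightly younger age. The 0 h libraries came from unoperated rather than sham-operated mice, so the effects of surgery and of regeneration cannot be told apart. Hepatocytes were isolated by 2-step collagenase perfusion, and the study describes the 3 libraries of each time point as biological replicates from separate hepatocyte preparations.

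Several of these kinases drive a cell from the end of DNA replication through mitosis. Aurora A (Aurka) matures the centrosomes and, with its cofactor Bora, switches on Polo-like kinase 1 (Plk1), which then acts on mitotic entry, spindle assembly, chromosome separation and cytokinesis. Tpx2 binds Aurora A on spindle microtubules and holds it in its active form. Plk4 starts the duplication of centrioles and Nek2 separates the duplicated centrosomes, while Plk2 and Plk3 are better known as early-response and stress-response genes. In adult liver most hepatocytes rest outside the cell cycle, and after PHx they re-enter it in a partly synchronized wave.

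The promoters are shown first because several of these genes moved together and because the cell cycle genes homology region (CHR), a short element bound by the DREAM and MuvB complexes, is known from promoters of genes expressed in G2 and M phase. RefSeq promoter windows of 300 bases (GRCm38.p6, the same assembly as the mm10 build of the files) were matched for 7 of the 10 genes, with no window used for Tpx2, Pbk and Bora. Each window was searched on both strands for the usual CHR letters TTTGAA and the related run TTTAAA, for the letters CCAAT bound by NF-Y, for the GC box GGGCGG, for the cyclic AMP response element TGACGTCA, and for the E2F-type letters TTTCCCGC or TTTGGCGC. TTTGAA was found in the windows of Plk1 and Aurka, and in 17.9% of all 32851 windows of the same length. CCAAT was found in Plk1, Aurka and Nek2, and in 37.4% of all windows. In both Plk1 and Aurka the TTTGAA letters lay just after the RefSeq start site, at 30 to 35 bases in Plk1 and at 32 to 37 bases in Aurka, with the start site counted as 0. The GENCODE gene start of Aurka lies 35 bases further downstream than the RefSeq start site used here, so the match sits at that start. Capitals mark the matched letters in these stretches, which lie at chr7:122159456-122159480 (plus strand) for Plk1 and chr2:172370523-172370547 (minus strand) for Aurka:
Plk1: agcgccgcgTTTGAAttcggggagg
Aurka: aggagaaccTTTGAAttgtaacggc

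The 100 bases before the start site are printed for the same pair and for Plk2 and Plk3, which among these 10 genes had the smallest differences between the time points. Capitals again mark matched letters, in either orientation. The stretches are chr7:122159335-122159434 (plus strand) for Plk1, chr2:172370571-172370670 (minus strand) for Aurka, chr13:110394944-110395043 (plus strand) for Plk2 and chr4:117133964-117134063 (minus strand) for Plk3.
Plk1: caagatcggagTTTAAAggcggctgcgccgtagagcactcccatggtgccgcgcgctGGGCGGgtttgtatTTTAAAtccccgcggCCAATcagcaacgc
Aurka: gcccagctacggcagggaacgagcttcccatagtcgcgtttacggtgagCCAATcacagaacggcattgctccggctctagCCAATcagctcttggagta
Plk2: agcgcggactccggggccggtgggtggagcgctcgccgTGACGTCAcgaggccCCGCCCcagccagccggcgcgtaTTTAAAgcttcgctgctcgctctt
Plk3: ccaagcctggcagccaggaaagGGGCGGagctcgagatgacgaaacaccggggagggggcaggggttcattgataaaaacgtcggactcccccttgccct

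Aurka carried CCAAT at 2 places before its start site and Plk1 at 1. Plk2 was the only 1 of the 7 genes with TGACGTCA, letters found in 1.79% of all windows. TTTAAA was found in Plk1, Aurka, Plk2 and Plk4 and in 13.2% of all windows, and GGGCGG in Plk1, Plk2, Plk3 and Melk and in 35.7% of all windows. None of the 7 windows held TTTCCCGC or TTTGGCGC, which were found in 1.07% and 0.514% of all windows. These matches describe letters in these windows and not binding.

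At 48 h after PHx, 9 of the 10 genes were higher than in undamaged liver, and none was lower. All 10 passed the filter of at least 10 counts in at least 3 libraries, and they were tested with edgeR's quasi-likelihood test over the 17037 genes that passed it, with Benjamini-Hochberg adjustment over all of them and a threshold of 0.05 on the adjusted p. At that threshold the share of all tested genes was 21.4% for higher, 19.3% for lower and 40.7% for either direction, and 9.69% were higher with a log2 fold change of at least 1, as all 9 of these genes were. The median log2 fold change was 4.27 over the 10 genes and -0.0033 over all genes tested. The time points did not overlap in the same 9 genes, each time with 48 h on top, which held for 27.8% of all genes tested, while 25.0% were separated with 48 h below and 52.7% either way. Levels are given as TMM-normalized CPM, the usual scaling of counts to a common library size, in the order of replicates 1, 2 and 3. The libraries held 31419443 to 36346220 counts on genes, so that a floor of 3 counts corresponds to 0.0825 to 0.0955 CPM before TMM scaling. In bulk RNA, a change in the number of cells that express a gene and a change in RNA per cell cannot be told apart.

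Plk1 (ENSMUSG00000030867.7, chromosome 7, 122159439 to 122169873, plus strand), the kinase with roles from mitotic entry to cytokinesis, stood at 0.545, 0.967 and 0.723 CPM in undamaged liver. It stood at 59.0, 63.5 and 38.5 CPM at 48 h after PHx. Every library at 48 h was far above every library at 0 h, and replicate 3 was the lowest of the later group. The log2 fold change was 6.16 ± 0.258 (SE, edgeR, adjusted p = 7.61e-08), which ranked 54 of the 17037 genes tested. A provisional gene model on the opposite strand, Gm44985, covers 7.09% of the exon bases of Plk1, and whether reads were counted by strand is not given in the sources used here.

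Plk4 (ENSMUSG00000025758.10, chromosome 3, 40800019 to 40816883, plus strand), the kinase that starts centriole duplication, was measured at 0.783, 1.29 and 0.934 CPM at 0 h. At 48 h its levels were 19.2, 18.9 and 17.5 CPM. The later libraries lay close together, with a coefficient of variation of 4.70%, against 24.8% for Plk1. Its log2 fold change was 4.20 ± 0.186 (SE, edgeR, adjusted p = 9.58e-08).

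Plk2 (ENSMUSG00000021701.8, chromosome 13, 110395046 to 110400844, plus strand), an early-response member of the family, was already present in undamaged liver at 8.75, 10.8 and 10.1 CPM. At 48 h it stood at 30.8, 30.0 and 32.7 CPM, with no overlap between the time points. The rise was the smallest among the 9 genes, with a log2 fold change of 1.65 ± 0.118 (SE, edgeR, adjusted p = 2.69e-06).

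Plk3 (ENSMUSG00000028680.14, chromosome 4, 117128655 to 117133963, minus strand), a stress-responsive member, was the only 1 of the 10 genes that did not pass the threshold. It stood at 216, 101 and 156 CPM at 0 h and at 113, 115 and 116 CPM at 48 h. The 0 h libraries spread on both sides of the 48 h libraries, which differed from each other by little (coefficient of variation 36.4% at 0 h and 1.54% at 48 h). Its log2 fold change was -0.46 ± 0.219 (SE, edgeR, adjusted p = 0.121). The value depended on single libraries of the 0 h group. Without replicate 2, the lowest of the 3, the log2 fold change was -0.70 with an adjusted p of 0.00479 in edgeR's test. Without replicate 1 of that group, the highest of the 3, the log2 fold change was -0.16 with an adjusted p of 0.515 in the same test. Without a filter on low counts the log2 fold change was -0.47 and the adjusted p 0.0166 in the same test. On the opposite strand, Tctex1d4 covers 3.32% of its exon bases.

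**Figure D1:**
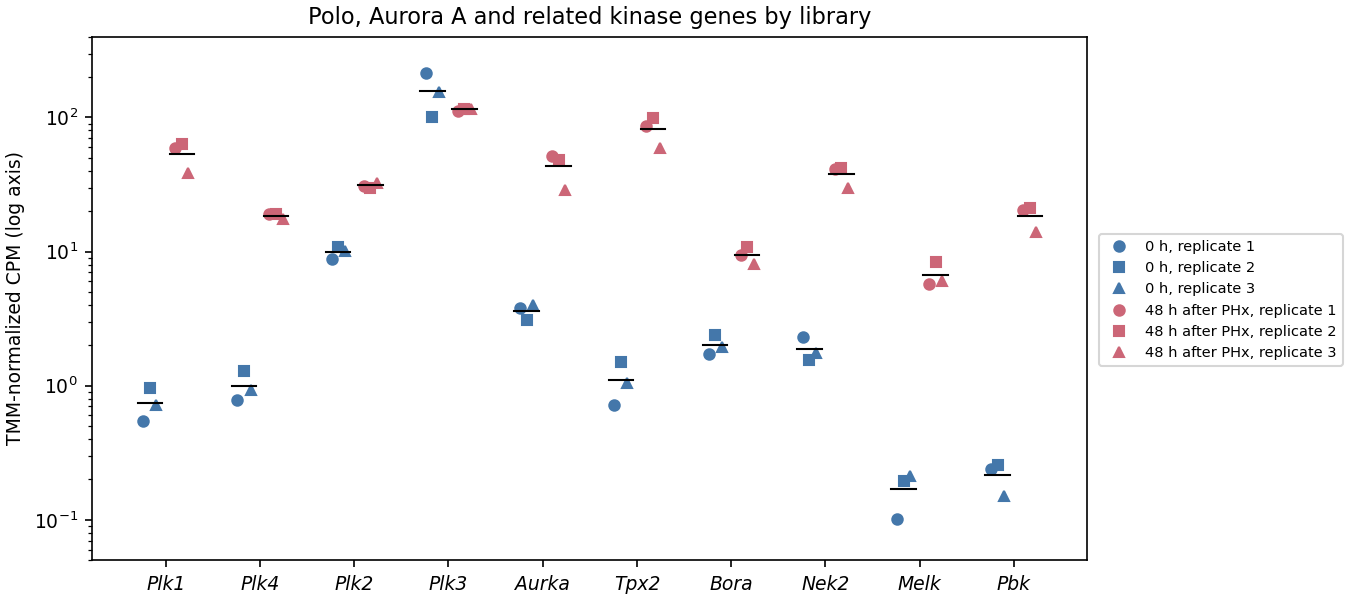
TMM-normalized CPM (log axis) of the 10 genes in each of the 6 libraries, with 0 h in blue, 48 h after PHx in red, a symbol for each replicate and a black line at the group mean. In 9 genes the red symbols lie above all blue ones, and for Plk3 the blue symbols, from 101 to 216 CPM, enclose the red ones.

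Aurka (ENSMUSG00000027496.15, chromosome 2, 172356190 to 172370535, minus strand), the gene of Aurora A, stood at 3.78, 3.09 and 4.01 CPM in undamaged liver. It stood at 52.0, 48.6 and 29.0 CPM at 48 h after PHx. The 48 h libraries lay above all 0 h libraries, replicate 3 again being the lowest of them, with a log2 fold change of 3.57 ± 0.227 (SE, edgeR, adjusted p = 1.15e-06).

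Tpx2 (ENSMUSG00000027469.16, chromosome 2, 152847964 to 152895321, plus strand), the spindle protein that activates Aurora A, rose from 0.715, 1.51 and 1.05 CPM to 86.8, 98.4 and 59.5 CPM. The time points were far apart, and replicate 3 was once more the lowest at 48 h. The log2 fold change was 6.21 ± 0.27 (SE, edgeR, adjusted p = 8.71e-08).

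Bora (ENSMUSG00000022070.7, chromosome 14, 99046222 to 99074540, plus strand), the cofactor with which Aurora A activates Plk1, stood at 1.74, 2.38 and 1.96 CPM at 0 h and at 9.38, 10.8 and 8.14 CPM at 48 h. The time points did not overlap, and the rise was smaller than in the other genes except Plk2, with a log2 fold change of 2.22 ± 0.188 (SE, edgeR, adjusted p = 9.95e-06).

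Nek2 (ENSMUSG00000026622.15, chromosome 1, 191821444 to 191833050, plus strand), the kinase that loosens the link between duplicated centrosomes, stood at 2.31, 1.55 and 1.75 CPM at 0 h and at 41.6, 42.3 and 30.0 CPM at 48 h. Its log2 fold change was 4.35 ± 0.198 (SE, edgeR, adjusted p = 1.14e-07). An antisense gene, Gm38037, overlaps 6.6% of its exon bases.

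Melk (ENSMUSG00000035683.13, chromosome 4, 44300876 to 44364675, plus strand), a kinase of the AMPK-related family, was barely detected in undamaged liver, at 0.102, 0.193 and 0.211 CPM. These levels rest on 3 to 7 counts per library. At 48 h Melk stood at 5.70, 8.42 and 6.05 CPM, and here replicate 1 rather than replicate 3 was the lowest. The log2 fold change was 5.27 ± 0.31 (SE, edgeR, adjusted p = 6.59e-07). From the summed 16 counts at 0 h and 705 counts at 48 h the level ratio was 39.5, with a 95% exact interval of 24.1 to 69.5 that covers counting error only.

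Pbk (ENSMUSG00000022033.9, chromosome 14, 65805837 to 65817822, plus strand), a kinase related to the MAP kinase kinases and active in mitosis, showed the largest log2 fold change of the 10 genes, 6.40 ± 0.269 (SE, edgeR, adjusted p = 7.61e-08). Its levels were 0.238, 0.258 and 0.151 CPM at 0 h, from 5 to 8 counts per library, and 20.3, 21.0 and 14.0 CPM at 48 h. The summed counts gave a level ratio of 86.2, with a 95% exact interval of 55.6 to 141.4 for counting error. It ranked 39 of all genes tested by log2 fold change, ahead of Tpx2 at 49 and Plk1 at 54, and the standard errors of these 3 genes are larger than the differences between them.

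**Figure D2:**
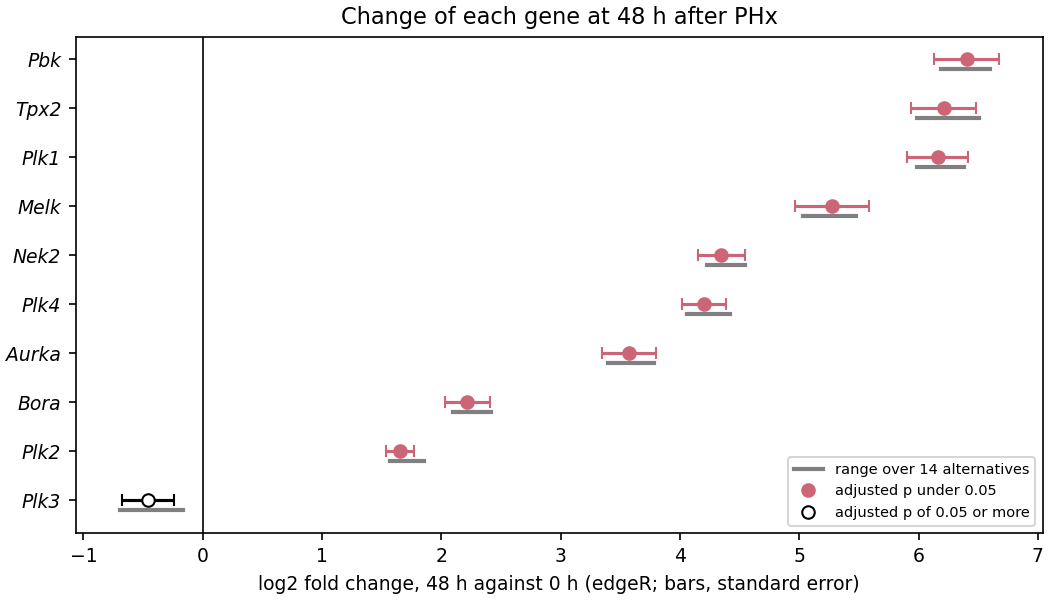
Log2 fold change of each of the 10 genes at 48 h against 0 h, with its standard error from edgeR, and below each point a grey bar for the range over 14 alternative analyses. Pbk, Tpx2 and Plk1 lie above 6, Plk2 is the lowest filled point at 1.65, and the open point of Plk3 lies at -0.46.

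Levels were compared between genes only after division by the length of the merged exons, as CPM per kb. In undamaged liver, Plk3 stood highest at 62.3 ± 22.7 CPM per kb (SD, n = 3), followed by Plk2 at 2.20 ± 0.233 (SD, n = 3) and Aurka at 1.43 ± 0.188 (SD, n = 3), and none of these 3 overlapped the next gene in the order. The other 7 genes lay at or below a mean of 0.414 CPM per kb. From Nek2 through Bora, Plk1, Tpx2, Plk4 and Pbk each gene overlapped the next one, and Melk stood apart as the lowest at 0.0568 ± 0.0196 CPM per kb (SD, n = 3).

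At 48 h the order changed below Plk3, which remained the highest at 45.3 ± 0.696 CPM per kb (SD, n = 3). Plk1 came next at 24.4 ± 6.04 (SD, n = 3), with Tpx2 at 17.4 ± 4.27 (SD, n = 3) and Aurka at 17.1 ± 4.91 (SD, n = 3), and each of these 3 overlapped its neighbour. Pbk, Nek2 and Plk2 followed at 10.3, 8.41 and 6.94 CPM per kb. Plk4, Melk and Bora stood lowest, at 2.70, 2.26 and 1.83 CPM per kb, apart from the others and overlapping each other in turn.

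Among Plk1, Plk2, Plk3 and Plk4, with Plk5 left out of the sum, the share of length-scaled counts that fell on Plk1 was 0.283%, 1.02% and 0.511% in the 0 h libraries and 33.1%, 34.4% and 23.9% in the 48 h libraries. The mean share was 0.606% ± 0.379 (SD, n = 3) in undamaged liver against 30.5% ± 5.70 (SD, n = 3) after PHx. The difference was 29.9 percentage points with no overlap, and the two-sided exact permutation p was 0.1, which is the lowest value this design can reach. Plk3 held 92.9% to 97.4% of these counts at 0 h and 54.4% to 62.6% at 48 h. The Plk4 share was 0.130% to 0.438% at 0 h and 3.29% to 3.50% at 48 h, and the Plk2 share 2.22% to 5.60% and 7.96% to 9.95%. Such a share does not depend on the scaling between libraries, but it moves with every gene in the sum, Plk3 included.

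**Figure D3:**
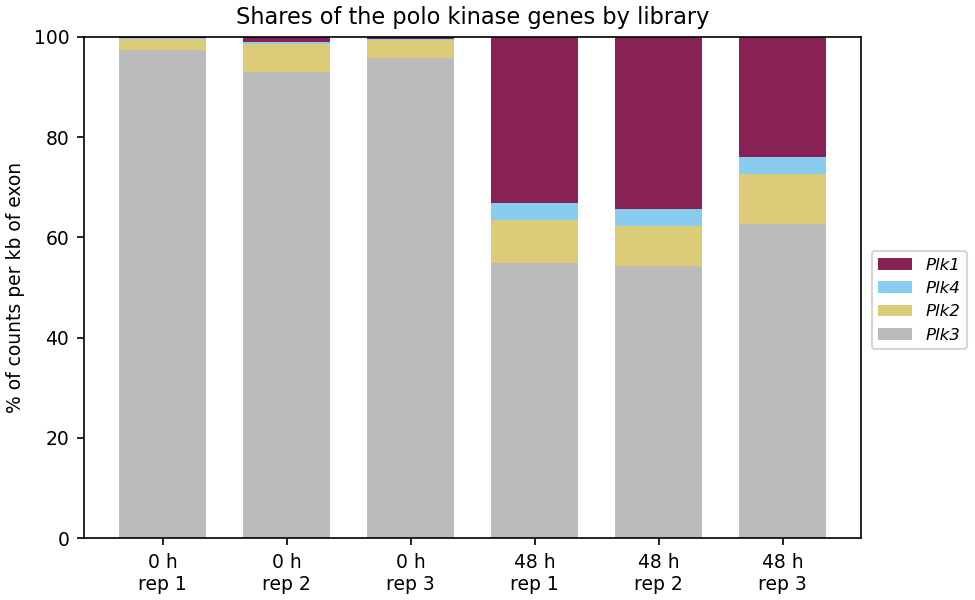
Percent of the counts per kb of exon on Plk1, Plk2, Plk3 and Plk4 in each library, stacked to 100%. The Plk1 part is at most 1.02% in the 0 h libraries and at least 23.9% in the 48 h libraries.

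Ratios within a library were used to compare each kinase with its activator without any scaling between libraries. There were 0.189, 0.490 and 0.263 Tpx2 counts per Aurka count at 0 h, and 1.67, 2.03 and 2.05 at 48 h. On the log2 scale, with 0.5 added to each count, the ratio was -1.77 ± 0.687 (SD, n = 3) in undamaged liver against 0.93 ± 0.168 (SD, n = 3) after PHx. The difference was 2.70 with no overlap (exact permutation p = 0.1, two-sided, again the lowest value possible). The spread between replicates was larger at 0 h, where Tpx2 rested on 21 to 47 counts per library.

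For the other pair the direction was opposite. Bora counts per Plk1 count were 3.19, 2.47 and 2.71 at 0 h and 0.159, 0.171 and 0.211 at 48 h. The log2 ratio was 1.45 ± 0.179 (SD, n = 3) in undamaged liver against -2.48 ± 0.213 (SD, n = 3) after PHx, a difference of -3.93 (exact permutation p = 0.1, two-sided). The groups did not overlap, and the ratio was lower at 48 h while both genes were higher. The counts in these ratios are not scaled by length, so the ratios are read between time points and not as levels of one gene against the other. Of the 3 measures tested in this way, which are these ratios and the Plk1 share, each had a p of 0.1 both before and after Benjamini-Hochberg adjustment over the 3.

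**Figure D4:**
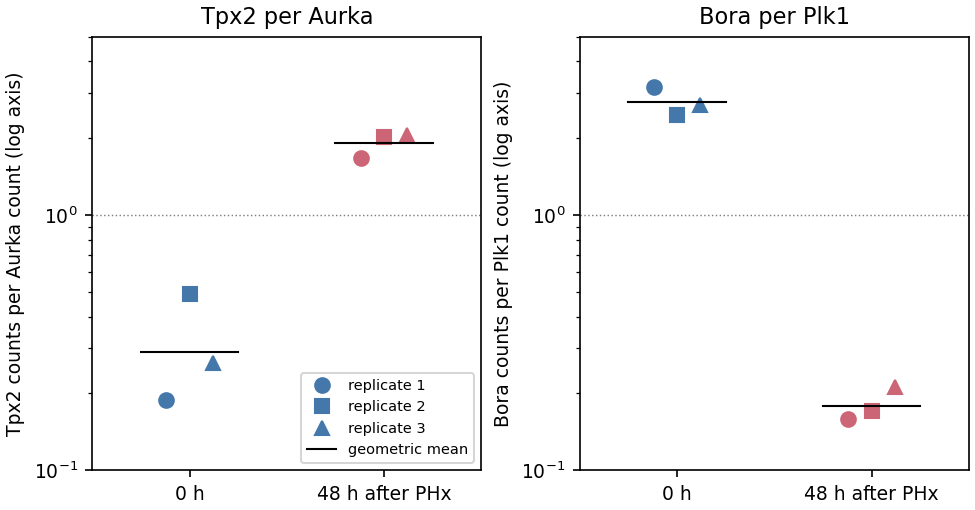
Tpx2 counts per Aurka count (left) and Bora counts per Plk1 count (right) in each library on log axes, with a black line at the geometric mean and a dotted line at 1. The left ratio is at most 0.490 at 0 h and at least 1.67 at 48 h, and the right ratio is at least 2.47 at 0 h and at most 0.211 at 48 h.

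The 48 h libraries were not alike for all of these genes. In replicate 3, Aurka stood at 57.6% of the mean of replicates 1 and 2, Plk1 at 62.9%, Tpx2 at 64.3%, Pbk at 67.8% and Nek2 at 71.4%. Bora, Melk and Plk4 stood at 80.6%, 85.8% and 92.2%. Plk3 and Plk2 stood at 101.7% and 107.6%, near the median of 99.6% over all genes tested. These percentages describe 1 library and were not tested, and without it the log2 fold changes of the 9 higher genes still passed the threshold in edgeR's test.

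The surroundings of these kinases were described with lists of partner genes. Of 20 genes of mitotic entry, 17 were higher at 48 h, none was lower and 3 did not pass the threshold, against 21.4% higher and 19.3% lower of all genes tested, and their median log2 fold change was 3.21. The largest changes were in Cdc25c, Foxm1 and Ccnb1. Cdc25c, a phosphatase that removes the inhibitory phosphates from Cdk1, had 0, 3 and 1 counts at 0 h and 219, 237 and 147 counts at 48 h, a level ratio of 135.1 with a 95% exact counting interval of 52.5 to 497.5. Foxm1, the transcription factor of the G2/M program, Ccnb1, the cyclin B1 gene, and Cdk1, its kinase partner, had log2 fold changes of 6.26, 5.99 and 5.57. Cdc25b, a relative of Cdc25c that acts earlier at centrosomes, stood at 0.422 ± 0.195 CPM (SD, n = 3) at 0 h and at 4.72 ± 2.13 CPM (SD, n = 3) at 48 h. The 3 genes that did not pass were Ensa, Fzr1 and Btrc, with log2 fold changes of 0.27, -0.01 and -0.16.

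Of 18 centrosome and spindle pole genes, 13 were higher and none was lower, where 21.4% and 19.3% of all genes tested were, and the median log2 fold change was 1.19. Hmmr, a spindle pole protein, Stil, which is needed for centriole assembly with Plk4, and Kif11, the bipolar spindle kinesin, changed most, with log2 fold changes of 6.96, 5.53 and 5.11. The centrosome scaffolds that recruit Plk4, Cep192 and Cep152, rose by less, with log2 fold changes of 2.15 ± 0.126 (SE, edgeR, adjusted p = 6.23e-07) and 2.14 ± 0.19 (SE, edgeR, adjusted p = 1.41e-05). Cep250 and Crocc, whose proteins form the linker that Nek2 takes apart, did not pass the threshold, with log2 fold changes of 0.38 and -0.19.

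All 16 kinetochore and cytokinesis genes were higher, compared with 21.4% of all genes tested, and their median log2 fold change was 5.15. Ttk, the spindle checkpoint kinase Mps1, stood at 0.233 ± 0.0548 CPM (SD, n = 3) at 0 h and at 22.8 ± 4.79 CPM (SD, n = 3) at 48 h. Its log2 fold change was 6.58, and those of Bub1, a checkpoint kinase that recruits Plk1, and Racgap1, a cytokinesis protein, were 6.07 and 5.95. The 0 h levels of Ttk rest on 5 to 9 counts per library and those of Bub1 on 4 to 5. The smallest change in this list was in Cit, at 1.79.

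A further list held 24 relatives of these kinases by family. Of the 19 that passed the filter, 5 were higher, 1 was lower and 13 did not pass the threshold, beside 21.4% higher and 19.3% lower among all genes tested, and the median log2 fold change was 0.14. The 5 that were not tested for low counts were Aurkc, Nek5, Nek10, Nek11 and Mark1. Aurkb, the Aurora kinase of the chromosomal passenger complex, stood at 0.272, 0.451 and 0.151 CPM at 0 h and at 22.4, 27.2 and 19.8 CPM at 48 h. Its log2 fold change was 6.31 ± 0.273 (SE, edgeR, adjusted p = 8.71e-08). The next largest were Nuak2, an AMPK-related kinase, at 1.22 and Nek3 at 1.17. Nek6 was higher, at 57.5 ± 10.1 CPM (SD, n = 3) against 90.5 ± 11.3 (SD, n = 3). Nek9 and Nek7, which with Nek6 form a kinase cascade downstream of Plk1, did not pass the threshold, with log2 fold changes of 0.16 and 0.17. Prkaa2, a catalytic subunit of AMPK, was the 1 gene called lower, at -0.41. The number of lower genes in this list depended on the scaling, as did the number of higher ones with library size only. With that setting, which shifts the median log2 fold change of all genes tested to 0.20, 9 were higher and none was lower, while with upper quartile factors 5 were higher and 6 were lower.

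Plk2 and Plk3 were set beside 18 immediate-early genes and p53 target genes, the classes in which they are usually placed. Of these, 8 were higher, 5 were lower and 5 did not pass the threshold, beside 21.4% higher and 19.3% lower among all genes tested, and the median log2 fold change was 0.40. Cdkn1a, the cell cycle inhibitor p21, stood at 7.52 ± 1.13 CPM (SD, n = 3) at 0 h and at 81.2 ± 12.5 CPM (SD, n = 3) at 48 h, a log2 fold change of 3.43 ± 0.157 (SE, edgeR, adjusted p = 1.19e-07). Ier3, with 4 to 10 counts per 0 h library, and Gadd45b followed with 2.84 and 2.52. The lower genes were Gadd45g, Dusp1, Zfp36, Ier2 and Junb, from -2.37 to -0.88. Egr1, an immediate-early transcription factor, had a log2 fold change of -0.46, the same value as Plk3, and did not pass the threshold either (adjusted p = 0.0795 in edgeR's test).

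**Figure D5:**
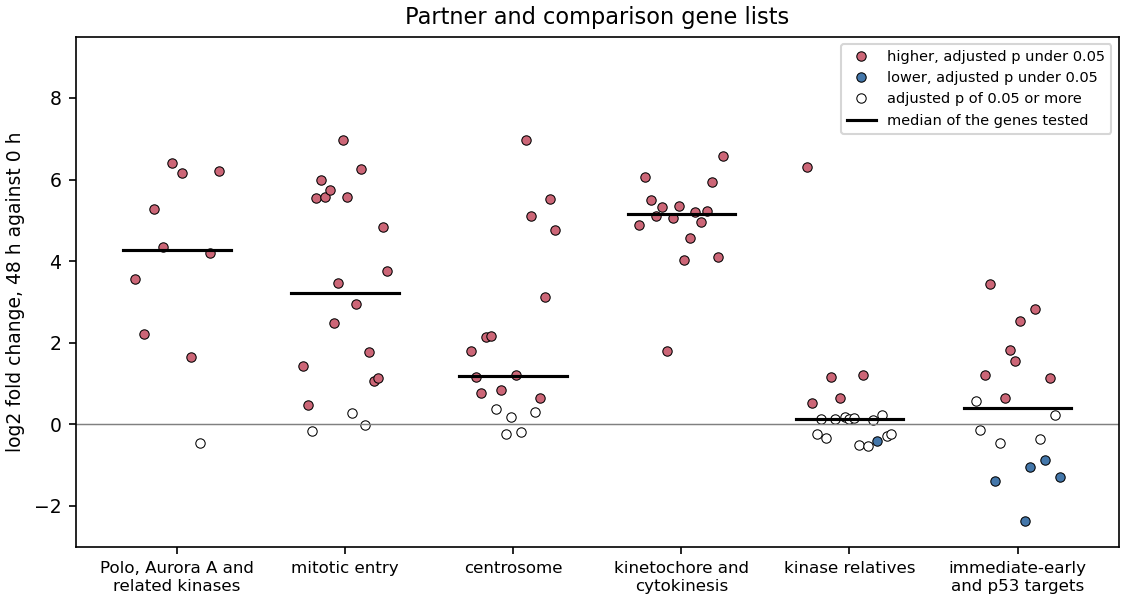
Log2 fold change at 48 h against 0 h of each tested gene in the 6 lists, in red when higher, in blue when lower and open when the adjusted p was 0.05 or more, with a black line at the list's median. The medians run from 5.15 for kinetochore and cytokinesis genes to 0.14 for the kinase relatives, where Aurkb stands alone at 6.31.

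The genes whose levels ran most like those of Plk1 over the 6 libraries, by Pearson's r of log2 CPM among the 7563 genes averaging 10 CPM or more, were Prc1, Ccna2, Tpx2, Iqgap3 and Ect2, each with r of 0.9996 or more. For Plk2 they were Prpf4, Atad2, Nup85, Thoc7 and Slfn9, with r from 0.9977 to 0.9990 and log2 fold changes from 0.70 to 5.12. With 2 time points, r mostly reflects the separation of the groups, and 203 genes had r over 0.99 with Plk1 and 127 with Plk2. Prc1, Ccna2, Tpx2 and Ect2 averaged 0.970, 0.937, 1.09 and 1.96 CPM at 0 h. They therefore reached the mean of 10 CPM only through the 48 h libraries.

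The hepatocyte label was checked with marker lists, whose counts of higher and lower genes stand beside 21.4% higher and 19.3% lower among all genes tested. The 8 hepatocyte markers summed to between 100858 and 119997 CPM at 0 h and between 62560 and 71728 CPM at 48 h. Most of this sum was Alb. Of the 8, 4 were lower, namely Alb, Ttr, Apoa1 and Cyp2e1. Apob, Trf, Hnf4a and Cps1 did not pass the threshold, with log2 fold changes of -0.41, -0.0051, 0.23 and 0.0099. The 7 endothelial markers summed to between 211 and 330 CPM at 0 h and between 156 and 173 CPM at 48 h, and all 7 were lower. The 9 Kupffer cell markers summed to between 77.1 and 116.8 CPM and between 110.1 and 134.9 CPM, and 2, Marco and Cd5l, were higher. The 7 stellate cell markers summed to between 47.2 and 74.6 CPM and between 38.0 and 46.8 CPM, with Col1a1 higher and Reln lower. Reln was the largest part of this sum, with means of 42.8 CPM at 0 h and 24.2 CPM at 48 h. Lrat, Des, Col3a1 and Pdgfrb did not pass the threshold. The 5 cholangiocyte markers summed to between 9.12 and 20.7 CPM and between 16.3 and 26.0 CPM. Most of this sum was Sox9, which did not pass the threshold, and Spp1 was higher. Krt19 had 4 counts or fewer and Krt7 and Epcam 3 or fewer in every library. The 5 erythroid markers summed to between 57.8 and 89.1 CPM and between 19.7 and 41.2 CPM, nearly all from Alas2, and the 2 tested were lower. The 7 lymphocyte markers summed to at most 3.80 CPM, nearly all from Ptprc. The 6 neutrophil markers summed to at most 0.531 CPM, and Cd3d and Mpo had 0 counts in all 6 libraries. The part of such cells in the rise of the kinase genes was not tested. Later and earlier times after PHx were not analysed here.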

How the data were processed

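The authors deposited, for each of the 6 bulk RNA-Seq libraries, raw read counts per gene in the layout of htseq-count, with no normalization. The submitters' processing notes name FastQC 0.11.5, Trim Galore 0.6.4, STAR 2.6, HTSeq 0.12.4 and DESeq2 and the build mm10, and the counting mode and strand setting are not given in the sources used here. Reads on no gene were 24.3% to 32.7% and ambiguous reads 4.27% to 5.29% of the reads in the files, and both stayed out of the library sizes. All 55450 identifiers are those of GENCODE M21, which gave names, coordinates and merged exon lengths.

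Groups and replicate numbers came from the sample titles. Time point was the single factor of an edgeR model (version 4.0.16, R 4.3.3, TMM factors, glmQLFit and glmQLFTest) of the 17037 genes that reached 10 counts in 3 or more libraries. The standard error is the size of the log2 fold change divided by the square root of the F statistic. Ratios and shares were compared by two-sided exact permutation tests. The edgeR, DESeq2 and limma-voom fits were first run on simulated counts, and the permutation and sign-flip tests were checked on made-up values. Alternatives were DESeq2 1.42.0, limma-voom (limma 3.58.1), RLE, upper quartile and library size scaling, 2 other filters on low counts, a log2 fold change of at least 1, the replicate number as a block, other pseudocounts and length scalings for the ratios, and leaving out each library in turn.

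The genes and lists were chosen with earlier results of these data known, and the lists come from general knowledge of the pathway. All 10 kinase and activator genes are named. Of each partner list the text names the 3 called genes with the largest change in size, 10 genes fixed with the lists, and some that did not pass or were lower, chosen after their values were seen.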

Additional observations from a re-analysis of the deposited data

How the results depend on the processing

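Over 25 results and 346 alternative values, 332 kept the direction and the side of the threshold, or a count within 1.5 times, and none reversed. Part of this tally was fixed in advance. Counts could stay or move but could not be called reversed. For the ratios and the share, the permutation p could not fall below 0.1, nor the sign-flip p below 0.25. No alternative could thus bring them across the threshold. Scaling by length could not change the differences in the log2 ratios. The counts that left the range of 1.5 times all concern Plk3 and the kinase relatives. The number of the 10 genes that were lower at 48 h went from 0 to 1, which is Plk3, without a filter on low counts. Of the kinase relatives, 9 were higher and 0 lower with library size only in place of 5 and 1, 2 were lower with RLE factors, 6 with upper quartile factors and 2 with at least 50 counts in 3 libraries, and 3 were higher and 0 lower with a log2 fold change of at least 1 required. The cause was not tested. The median log2 fold change of all genes tested was 0.20 with library size only and -0.09 with upper quartile factors, against -0.0033 in the main analysis. Leaving out 1 library at a time gave 9 to 9 higher and 0 to 1 lower of the 10 genes, and 4 to 5 higher and 1 to 3 lower kinase relatives, with 3 lower without 0 h replicate 2 and 2 lower without replicate 1 or replicate 3 at 48 h. It gave a difference in the log2 ratio of 2.40 to 3.07 for Tpx2 to Aurka and -4.05 to -3.83 for Bora to Plk1, and 27.9 to 33.1 percentage points for the Plk1 share. Over 14 alternatives the log2 fold change of Plk3 ran from -0.70 to -0.16 with adjusted p from 0.00479 to 0.515, while those of the other 9 genes had adjusted p of at most 0.000136.

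With the replicate block in edgeR, 9 of the 10 genes were higher and 0 lower, and the block changed no call among them. As means of same-numbered differences the replicate block gave 2.70, -3.93 and 29.9 percentage points for the ratios and the share (exact sign-flip test, p = 0.25, the smallest that 3 pairs allow). By arithmetic these means equal the differences between the group means, so this setting could change only the p. The sample titles give same-numbered libraries a shared number and name no pairing or batch. Their deviations from the group means correlated at 0.03, -0.07 and -0.14 across genes. Differently numbered libraries gave -0.05 to 0.13. With so few libraries these values cannot show whether same-numbered libraries shared a day or batch. Depth limits the folds of genes with few counts at 0 h, among them Melk, Pbk, Cdc25c, Bub1, Ttk and Ier3.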

Other observations

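The level in replicate 3 at 48 h was also computed for the partner lists. Relative to the mean of replicates 1 and 2, the median over the 16 kinetochore and cytokinesis genes was 67.5% in replicate 3, with all 16 below 100%, as were 8695 of all 17037 genes tested. The median was 76.0% over the 10 kinase and activator genes (8 below 100%), 82.2% over the 20 mitotic entry genes (16 below), 91.1% over the 18 centrosome genes (16 below) and 83.8% over the 18 immediate-early and p53 target genes (15 below). It was 99.5% over the 19 kinase relatives tested (10 below), close to the 99.6% over all genes tested. This comparison was made after the values were seen and was not tested.

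In the 0 h group, replicate 2 had the highest levels of Plk1, Plk2, Plk4, Tpx2, Pbk and Bora and the lowest of Plk3, Aurka and Nek2, each among 3 libraries. Plk5, the Polo-like kinase gene best known from brain, stood at 1.91 ± 0.263 CPM (SD, n = 3) at 0 h and at 1.31 ± 0.673 CPM (SD, n = 3) at 48 h (log2 fold change -0.54, standard error 0.365, adjusted p = 0.267 in edgeR's test).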
